A study of Mus musculus with 180 samples.

Results

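Genes of mitosis and chromosome segregation were followed cell by cell in 4 populations of mouse blood-forming cells, 50 of the 14825 genes in the table. The members were taken by name from a list of genes that work between mitotic entry and cytokinesis, and were sorted into 8 roles. All 50 were in the table, and all 50 passed the detection filter, as did 10856 genes in all. A gene is called detected in a cell at a TPM (transcript abundance scaled for length and to 1 fixed total per cell) of 1 or more, and the filter asked for detection in at least 10% of cells in 1 or more populations.

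The study asked what Hoxb5, a homeobox factor of blood stem cells, does when it is switched on in multipotent progenitors (MPP), and compared the cells that arose with stem cells and progenitors. CD11b+CD48+SK cells (47 cells) were Sca1+c-kit+ donor cells of bone marrow, sorted from primary recipients at Week 8 post-transplantation. They came from MPP of Mx1cre/Rosa LSL-Hoxb5-EGFP/+ mice, in which a Cre driven by the interferon-responsive Mx1 promoter, induced with pIpC, removes a stop cassette and lets the Rosa26 locus express Hoxb5 and EGFP, and the hosts were irradiated CD45.1+ mice. The other populations carried the Rosa LSL-Hoxb5-EGFP/+ allele with no Cre and were not transplanted: WT-MPP (41 cells) and bone marrow haematopoietic stem cells (BM HSC, 36 cells) from 8-week-old mice, and fetal liver HSC (FL HSC, 56 cells) from embryos at Day14.5. All mice were C57BL/6. WT-MPP were gated as CD48-CD150-CD135+ and FL HSC as the CD150+ and CD11b+ cells among the Lin-, Sca1+ and c-kit+ cells of CD45.2+ origin, so each population was set by its surface gate, and no gate named a member gene or DNA content. Transplanted MPP without Cre were not analysed here. Hoxb5, pIpC, irradiation of the hosts, transplantation, host age and the surface gate therefore cannot be told apart. The tissue field of the labels gives bone marrow for all cells, also for those whose cell type is fetal liver HSC.

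Mitosis is driven by Cdk1 with a B-type cyclin, together with the Polo and Aurora kinases. Chromosomes are condensed, their centromeres are tied to spindle microtubules through kinetochores, and a checkpoint holds back the anaphase promoting complex until every chromosome is attached. The complex then marks securin and the B cyclins for destruction, sisters separate, and the central spindle guides the split of the cell. Most of these transcripts build up in G2 and mitosis and are low in resting cells. Adult long-term HSC are known to be mostly quiescent, while fetal liver HSC divide while their pool grows.

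No cell is tied to an animal, so each population counted as 1 sample. There is no test between populations, and intervals on shares of cells are 95% exact Clopper-Pearson intervals that cover the counting of cells only. The depth per cell is unknown because TPM keeps no read counts. The number of genes detected stands in its place, with a median of 5206.5 per FL HSC, 4514 per CD11b+CD48+SK cell, 4441.5 per BM HSC and 3844 per WT-MPP cell. In TPM, a lower share of a cell's RNA and less of the transcript cannot be told apart. No pair of cells had identical values. B2m, Actb, Eef1a1 and Rpl13a were detected in every cell, and Gapdh in every cell but 1 WT-MPP cell. Of the HSC markers, Procr was detected in 10 CD11b+CD48+SK cells, 50 FL HSC, 27 BM HSC and 33 WT-MPP, Hlf in 8, 49, 28 and 37, Mecom in 3, 33, 24 and 14, Slamf1 in 3, 31, 23 and 3, and Fgd5 in 0, 18, 9 and 3. The erythroid marker list was at a median of 3309 TPM in FL HSC, 42.1 in BM HSC and 0 in the other 2 populations, and the T-cell list had a median of 0 in all 4. The part of these markers in the results was not tested.

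More of the members were detected per cell in FL HSC and the CD11b+CD48+SK cells than in the adult WT-MPP and BM HSC. A CD11b+CD48+SK cell held between 4 and 46 of the 50 members at a TPM of 1 or more, with a median of 13. A WT-MPP cell held between 2 and 27, with a median of 6, and a BM HSC between 2 and 21, with a median of 7. An FL HSC held between 5 and 49, with a median of 12. The 75th percentile of the FL HSC was 33.2 members and that of the CD11b+CD48+SK cells 20.5, against 8 in WT-MPP and 10.2 in BM HSC. The distributions of all 4 populations overlapped at their low ends, and the populations parted in how many cells reached 30 members or more: 8 of 47 CD11b+CD48+SK cells, 16 of 56 FL HSC, 0 of 41 WT-MPP and 0 of 36 BM HSC.

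**Figure D1:**
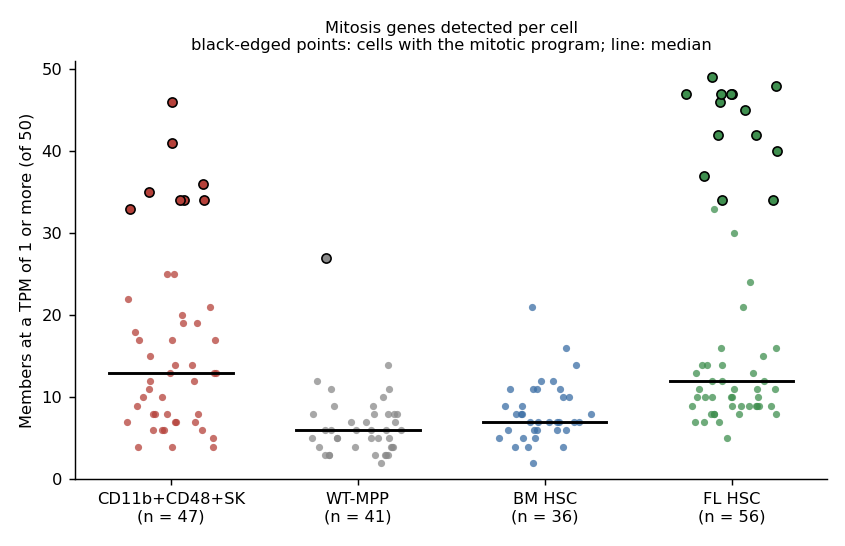
Number of the 50 members at a TPM of 1 or more (vertical axis) in each cell of the 4 populations (1 point per cell, spread sideways at random, with a line at the median and a black edge on cells with the mitotic program). The medians are 13, 6, 7 and 12 from left to right, and the points at 30 members or more are 8 CD11b+CD48+SK cells and 16 FL HSC.

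A cell was said to have the mitotic program when at least 6 of 12 late core genes were at a TPM of 1 or more. The late core was Plk1, Aurka, Ccnb1, Ccnb2, Cdc20, Ube2c, Cenpe, Cenpf, Kif20a, Bub1, Tpx2 and Hmmr, genes whose transcripts peak near mitosis. The program was present in 8 of 47 CD11b+CD48+SK cells, 17% (interval 7.65 to 30.8%). It was present in 14 of 56 FL HSC, 25% (14.4 to 38.4%), so the intervals of these 2 populations overlap widely. In WT-MPP 1 of 41 cells had it, 2.44% (0.0617 to 12.9%). In BM HSC 0 of 36 cells had it, which allows a share of up to 8.33%. The cut is a point on a range, and 4 CD11b+CD48+SK cells, 0 WT-MPP, 1 BM HSC and 2 FL HSC lay at 5 or 6 late core genes.

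CD11b+CD48+SK cells and FL HSC were spread differently along the late core. Of the 14 FL HSC with the program, 11 held 11 or 12 of the 12 genes, no cell held 9 or 10, and the median was 11. The 8 CD11b+CD48+SK cells with the program held between 6 and 12, with a median of 8.5, and 2 of them held 11 or 12. At the low end, 23 of 47 CD11b+CD48+SK cells, 22 of 56 FL HSC, 30 of 36 BM HSC and 31 of 41 WT-MPP held no more than 1 late core gene.

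**Figure D2:**
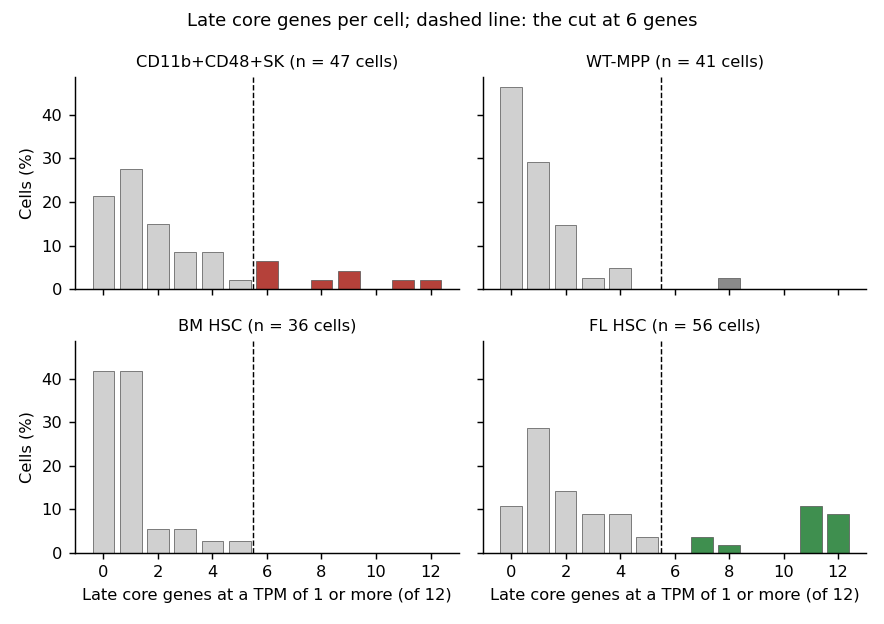
Share of cells in percent (vertical axis) with each number of the 12 late core genes at a TPM of 1 or more (horizontal axis), 1 panel per population, with coloured bars at 6 genes or more. FL HSC have a separate group of 11 cells at 11 and 12 genes, while the CD11b+CD48+SK cells with the program run from 6 to 12.

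More genes were detected at the median in the cells with the program than in those without it. The 8 CD11b+CD48+SK cells with it had a median of 5327.5 genes detected, against 4390 in the 39 without it. The 14 FL HSC with it had a median of 5570 genes, against 5032.5 in the 42 without it. The fewest genes in a cell with it were 4179 among CD11b+CD48+SK cells and 4185 among FL HSC, each below its population's median. Across cells, Spearman's rho between members detected and genes detected was 0.63 in the 56 FL HSC, 0.76 in the 47 CD11b+CD48+SK cells, 0.40 in the 36 BM HSC and 0.070 in the 41 WT-MPP, given as a description since both counts come from the same cells. Among cells with 4000 to 5000 genes, the program was present in 3 of 24 CD11b+CD48+SK cells, 12.5% (2.66 to 32.4%), and in 2 of 21 FL HSC, 9.52% (1.17 to 30.4%). It was present there in 0 of 17 WT-MPP and 0 of 17 BM HSC. The order of CD11b+CD48+SK cells and FL HSC thus turned within that range, with intervals that overlap.

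**Figure D3:**
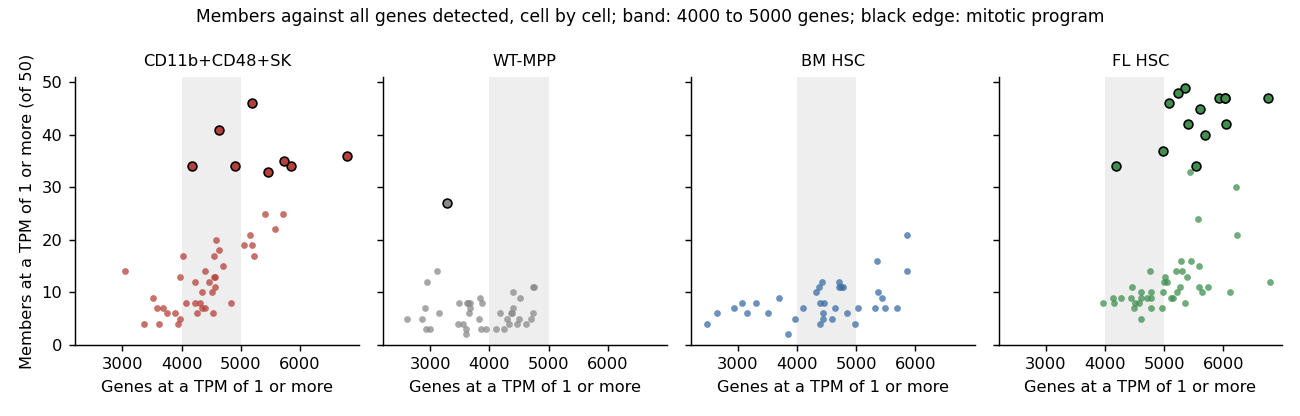
Members at a TPM of 1 or more (vertical axis) against all genes at a TPM of 1 or more (horizontal axis) for each cell, 1 panel per population, with a grey band from 4000 to 5000 genes and a black edge on cells with the mitotic program. Of the 14 FL HSC with the program 2 lie in the band, and of the 8 CD11b+CD48+SK cells 3 do.

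The single WT-MPP cell with the program held 27 members and 8 late core genes, though only 3278 genes were detected in it, fewer than the WT-MPP median. Cyclin B2 (Ccnb2) was at 3054 TPM in that cell, the centromeric histone Cenpa at 1903, Cdc20 at 1337, survivin (Birc5) at 1232 and Cdca8 at 1140. Plk1, Ube2c, Nusap1 and Mki67 were listed at 0 in it. It held 7 of 28 S-phase genes, close to the median of 6 in the other WT-MPP cells.

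Genes of this class are known to be held down in resting cells through a promoter element, the cell cycle genes homology region (CHR), whose letters are TTTGAA or, in a variant used at some promoters, TTCGAA. Many are driven through CCAAT boxes, which bind the activator NF-Y. Both were searched by their letters on both strands in the RefSeq promoter windows of GRCm38.p6, from 250 bases before to 50 after each start. All 50 members matched a RefSeq gene and 43 had a window. The CHR letters were in the windows of 34 of these 43 members (79.1%) and of 21.7% of the 27025 genes with a window. Upstream of the start alone they were in 18 of 43 (41.9%), against 19.6% of all genes. CCAAT was in 33 of 43 (76.7%), against 41.1% of all genes, and both were in 30 of 43 (69.8%), against 8.61% of all genes. A CHR match shared bases with a CCAAT match in 1 of the 50 CHR matches in the members' windows. Birc5 had neither in its window. A match is a run of letters and no measured site.

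The 150 bases before the start are printed for 6 members from 4 roles in which both elements lay upstream, as examples of their spacing. They run 5′ to 3′ on the strand of the gene, and the capitals mark CHR letters and CCAAT letters on either strand. Cdk1 is at chr10:69352913-69353062 (minus strand), Cks1b at chr3:89418292-89418441 (minus), Cdc20 at chr4:118437344-118437493 (minus), Ube2c at chr2:164769779-164769928 (plus), Kif11 at chr19:37376232-37376381 (plus) and Top2a at chr11:99024190-99024339 (minus).
Cdk1: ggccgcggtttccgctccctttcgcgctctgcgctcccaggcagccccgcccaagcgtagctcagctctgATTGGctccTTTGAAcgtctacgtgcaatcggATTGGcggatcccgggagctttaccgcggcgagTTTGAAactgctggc
Cks1b: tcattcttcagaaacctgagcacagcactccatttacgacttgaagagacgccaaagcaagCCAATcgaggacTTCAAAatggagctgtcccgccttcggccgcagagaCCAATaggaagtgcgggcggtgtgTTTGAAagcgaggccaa
Cdc20: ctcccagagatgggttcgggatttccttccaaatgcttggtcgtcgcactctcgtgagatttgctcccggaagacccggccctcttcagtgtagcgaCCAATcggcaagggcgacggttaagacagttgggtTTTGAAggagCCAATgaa
Ube2c: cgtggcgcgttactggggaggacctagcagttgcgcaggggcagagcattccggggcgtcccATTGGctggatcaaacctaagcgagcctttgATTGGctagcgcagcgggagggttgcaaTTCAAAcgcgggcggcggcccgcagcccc
Kif11: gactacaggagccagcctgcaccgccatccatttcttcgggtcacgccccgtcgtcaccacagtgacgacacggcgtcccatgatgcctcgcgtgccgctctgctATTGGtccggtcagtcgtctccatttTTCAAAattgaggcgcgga
Top2a: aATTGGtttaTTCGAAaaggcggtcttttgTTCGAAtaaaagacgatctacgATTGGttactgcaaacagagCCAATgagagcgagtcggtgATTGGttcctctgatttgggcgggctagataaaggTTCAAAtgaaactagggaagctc
The CHR match nearest the start began 15 bases before it in Cdk1, 17 in Cks1b, 18 in Cdc20, 29 in Ube2c, 19 in Kif11 and 23 in Top2a. The same pair of elements stood before genes found in most cells and genes found in few: Cks1b was detected in 43 of 47 CD11b+CD48+SK cells and Kif11 in 7.

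The level of each gene was compared between populations as the difference in mean log2(TPM+1) over all cells of a population, and a difference above 1 or below -1 was counted. CD11b+CD48+SK cells were higher than WT-MPP by more than 1 in 22 of 50 members and lower in 0, where 19.01% of all 10856 genes were higher and 5.01% were lower. The median difference of the members was 0.88, against 0.21 over all genes. Against BM HSC, 19 members were higher and 0 lower, where 13.4% of all genes were higher and 11.8% lower, and the median was 0.77 against -0.00 over all genes. FL HSC were higher than WT-MPP in 38 members and lower in 0 (33.9% and 3.08% of all genes), with a median of 1.70 against 0.56. FL HSC were higher than BM HSC in 38 members and lower in 0 (25.6% and 5.44% of all genes), with a median of 1.38 against 0.31. Between WT-MPP and BM HSC, 0 members were higher and 3 lower in WT-MPP (2.67% and 14.49% of all genes), with a median of 0.00 against -0.22. Comparisons with a population in common share its cells. Among cells with 4000 to 5000 genes, CD11b+CD48+SK cells were higher than WT-MPP in 17 members and than BM HSC in 13 (11.8% and 13.7% of all genes), while FL HSC were higher in 15 and 13 (19.6% and 19.2%), down from 38 and 38.

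CD11b+CD48+SK cells were below FL HSC in most members. They were lower by more than 1 in 16 of 50 and higher in 1, where 20.9% of all genes were lower and 4.02% higher. The median difference was -0.78, against -0.32 over all genes. Of the 50 members 44 lay below 0, as did 7466 of all 10856 genes. All 12 late core genes lay below 0, with a median of -1.06 and values from -2.07 for Ccnb1 to -0.16 for Cenpf. This difference did not hold among cells with 4000 to 5000 genes: there the median over members was 0.17, against -0.14 over all genes, and 19 of 50 lay below 0. In that range 2 members were higher by more than 1 (Cks2 and Smc4) and 3 lower, where 8.82% and 18.5% of all genes were. Of the 16 members lower over all cells, 12 stayed below 0 in that range and 3 stayed lower by more than 1 (Ccnb1, Pttg1 and Kif23). Aurka (0.60), Ndc80 (0.50), Spc24 (0.22) and Plk1 (0.03) lay above 0 there.

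**Figure D4:**
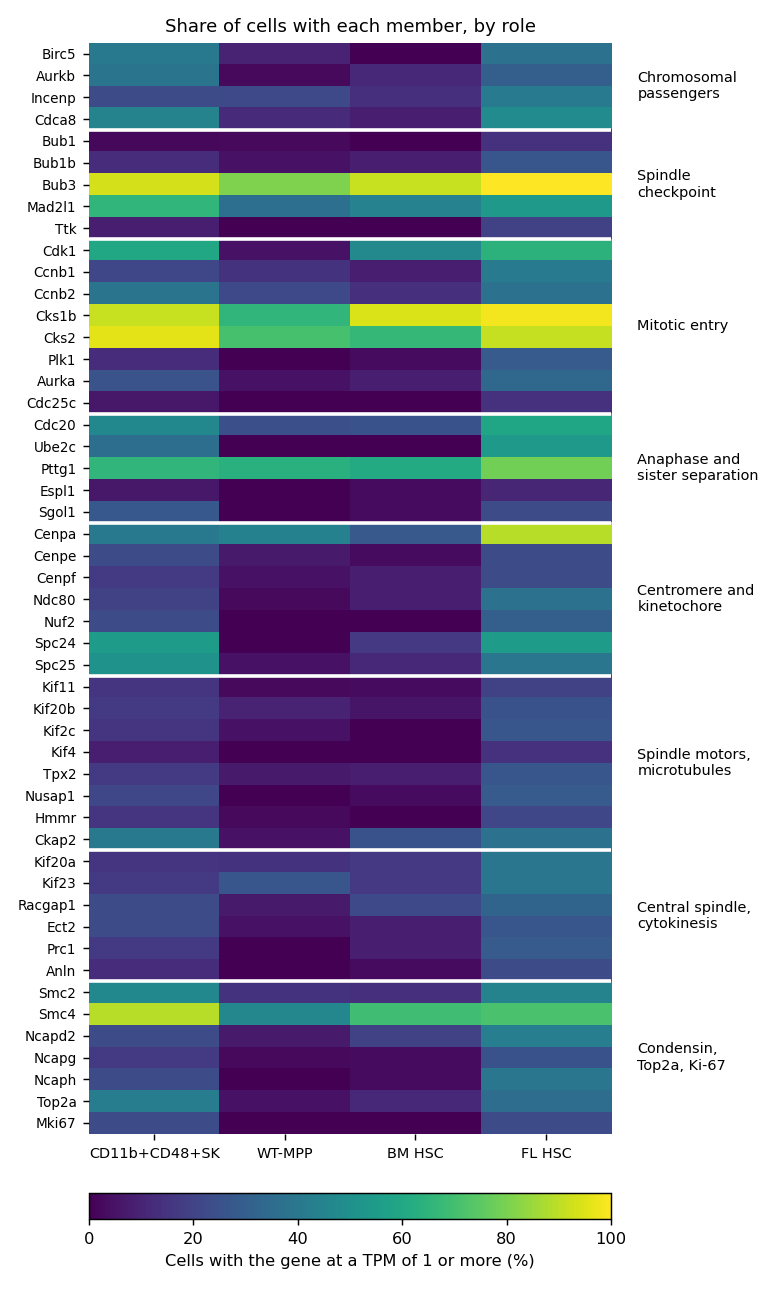
Share of cells (colour, 0 to 100%) with each of the 50 members at a TPM of 1 or more, in the 4 populations (columns), with members grouped by role (rows). Bub3, Cks1b, Cks2 and Pttg1 are in most cells of every population, and most other members are in few WT-MPP and BM HSC. Cenpa is in 89.3% of FL HSC and in no more than 43.9% of cells elsewhere.

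In the chromosomal passenger complex, which corrects faulty attachments and steers cytokinesis, all 4 members were in larger shares of FL HSC and of CD11b+CD48+SK cells than of either adult population. For Incenp the excess of CD11b+CD48+SK cells over WT-MPP was small. Survivin (Birc5, chr11:117849251-117855743 of GRCm38, plus strand), the subunit that docks the complex on chromosomes, ranged from 0 to 1172 TPM in CD11b+CD48+SK cells with a median of 0.465, and from 0 to 1722 TPM in FL HSC with a median of 0.406. It was detected in 19 of 47 CD11b+CD48+SK cells (40.4%) and 21 of 56 FL HSC (37.5%), but in 4 of 41 WT-MPP and 0 of 36 BM HSC. The last count allows a share of up to 8.33% by the limit of 3 cells and of up to 9.74% by the exact interval. The ranges of all 4 populations start at 0, and every cell with the program had Birc5. The other 11 Birc5-positive CD11b+CD48+SK cells and 7 Birc5-positive FL HSC did not have the program. Where detected, Birc5 had a median of 300.4 TPM in CD11b+CD48+SK cells, 725 in FL HSC and 2.06 in the 4 WT-MPP cells.

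The kinase of the complex, Aurkb, was in 18 of 47 CD11b+CD48+SK cells, 17 of 56 FL HSC, 4 of 36 BM HSC and 1 of 41 WT-MPP. Borealin (Cdca8), which joins survivin to the scaffold, was in 21, 27, 3 and 5 cells in the same order, and its difference between CD11b+CD48+SK cells and the FL HSC was -1.11. The scaffold Incenp differed least from the adult populations, in 11 CD11b+CD48+SK cells, 23 FL HSC, 5 BM HSC and 9 WT-MPP, and was 0.07 above WT-MPP and 0.21 above BM HSC in CD11b+CD48+SK cells, while its difference from FL HSC was -0.96. All 4 subunits were present together in 6 of 47 CD11b+CD48+SK cells (12.8%, 4.83 to 25.7%), 13 of 56 FL HSC (23.2%, 13 to 36.4%), 1 of 41 WT-MPP and 0 of 36 BM HSC.

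Among the spindle checkpoint genes, the shared subunit Bub3 was the most frequent, and the kinases were rare. Bub3, which also works outside mitosis, was in 44 of 47 CD11b+CD48+SK cells, 56 of 56 FL HSC, 33 of 36 BM HSC and 33 of 41 WT-MPP, with medians of 178, 205, 128 and 161 TPM. Its difference between CD11b+CD48+SK cells and the FL HSC was -1.25. Mad2l1, the checkpoint effector that binds Cdc20, was in 31 CD11b+CD48+SK cells, 15 WT-MPP, 16 BM HSC and 30 FL HSC. The kinase Bub1 was detected in 1 CD11b+CD48+SK cell, at 2.07 TPM, and in 8 FL HSC, with a highest value of 81.7 TPM. Ttk, the kinase that starts the checkpoint signal, was in 11 FL HSC and in 4 CD11b+CD48+SK cells and was listed at 0 in every WT-MPP cell and BM HSC. Bub1b, a subunit of the mitotic checkpoint complex, was in 6 CD11b+CD48+SK cells, 2 WT-MPP, 3 BM HSC and 15 FL HSC.

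The genes of mitotic entry held the widest contrast between the 2 adult populations. Cdk1 (chr10:69335146-69352938, minus strand), the kinase that drives entry, was detected in 28 of 47 CD11b+CD48+SK cells (59.6%), 36 of 56 FL HSC (64.3%), 17 of 36 BM HSC (47.2%, 30.4 to 64.5%) and in 2 of 41 WT-MPP (4.88%, 0.596 to 16.5%). Its TPM ran from 0 to 410 with a median of 2.36 in CD11b+CD48+SK cells, from 0 to 116 with a median of 0 in WT-MPP, from 0 to 285 with a median of 0.840 in BM HSC and from 0 to 517 with a median of 32.2 in FL HSC. WT-MPP held it in the smallest share of cells, and the ranges of all 4 populations overlap. Cdk1, the Cdk-binding subunit Cks1b and the condensin subunit Smc4 were the 3 members lower in WT-MPP than in BM HSC by more than 1, at -2.32, -2.49 and -1.07.

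Cks1b was in 43 CD11b+CD48+SK cells, 27 WT-MPP, 34 BM HSC and 55 FL HSC, with medians of 439, 4.66, 269.97 and 371 TPM. An intronless copy of Cks1b exists in the mouse genome, and how reads were shared between the copies is not stated. Its relative Cks2 ran from 0 to 5328 TPM in CD11b+CD48+SK cells with a median of 248, and its medians were 247 TPM in FL HSC, 6.60 in BM HSC and 10.2 in WT-MPP. Cks2 had the largest difference of CD11b+CD48+SK cells from BM HSC among the members (3.60), and Cks1b had the largest from WT-MPP (3.67). Cks proteins serve Cdk2 in S phase as well as Cdk1 in mitosis.

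The cyclins and mitotic kinases were found in fewer cells. Ccnb2 was in 18 CD11b+CD48+SK cells, 9 WT-MPP, 5 BM HSC and 21 FL HSC. Ccnb1 was in 10, 6, 3 and 23 cells in the same order and had a difference between CD11b+CD48+SK cells and the FL HSC of -2.07. Cdk1 and at least 1 B cyclin were present together in 19 of 47 CD11b+CD48+SK cells (40.4%) and 21 of 56 FL HSC (37.5%), 3 of 36 BM HSC and 1 of 41 WT-MPP, so that 14 of the 17 Cdk1-positive BM HSC had no B cyclin detected. Plk1, the Polo kinase, was in 6 CD11b+CD48+SK cells, 0 WT-MPP, 1 BM HSC and 16 FL HSC (difference from FL HSC -1.38). Aurka, the spindle-pole Aurora kinase, was in 12, 2, 3 and 19 cells (-1.22). Cdc25c, a phosphatase that activates Cdk1, was in 8 FL HSC and in 3 CD11b+CD48+SK cells and was listed at 0 in all cells of the 2 adult populations.

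In the genes of anaphase, the coactivator Cdc20 and the ubiquitin-conjugating enzyme Ube2c differed from the rest in range. Ube2c ran from 0 to 1061 TPM with a median of 0 in CD11b+CD48+SK cells and from 0 to 2916 TPM with a median of 1.48 in FL HSC, and its highest value was 0.690 TPM in WT-MPP and 0 in BM HSC. It was detected in 17 of 47 CD11b+CD48+SK cells and 30 of 56 FL HSC, a difference of -1.96. Cdc20 was in 22 CD11b+CD48+SK cells, 10 WT-MPP, 9 BM HSC and 33 FL HSC (-1.82). Both genes have exons that overlap a gene on the other strand, Tnnc2 for Ube2c and Elovl1 for Cdc20, and without strand their reads cannot be told apart. The same holds for Cdca8, Plk1, Cdc25c, Kif4, Nusap1 (with Oip5), Kif20a (with Cdc23), Prc1 (with Rccd1) and Ncapg (with Lcorl).

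Securin (Pttg1), which restrains separase, was frequent everywhere, in 31 CD11b+CD48+SK cells, 26 WT-MPP, 22 BM HSC and 44 FL HSC, with a difference from FL HSC of -1.07. Separase itself (Espl1) was in 3, 0, 1 and 6 cells. Shugoshin (Sgol1), which guards centromeric cohesion, was in 13 CD11b+CD48+SK cells, 0 WT-MPP, 1 BM HSC and 13 FL HSC and was 0.23 above FL HSC.

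At the centromere and kinetochore, Cenpa (chr5:30666777-30674830, plus strand), the histone that marks centromeres, had the largest difference of any member between CD11b+CD48+SK cells and the FL HSC, at -3.47. It ran from 0 to 1862 TPM with a median of 0 in CD11b+CD48+SK cells, from 0 to 1903 with a median of 0.576 in WT-MPP, from 0 to 410 with a median of 0 in BM HSC and from 0 to 1695 with a median of 76.7 in FL HSC. It was detected in 50 of 56 FL HSC (89.3%, 78.1 to 96.0%), against 19 of 47 CD11b+CD48+SK cells (40.4%, 26.4 to 55.7%), 10 of 36 BM HSC and 18 of 41 WT-MPP. The excess in FL HSC was not confined to cells with the program, since 36 of the 42 FL HSC without it also had Cenpa, at a median of 63.5 TPM over those 42. Among cells with 4000 to 5000 genes the difference was -0.93.

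The 4 subunits of the NDC80 complex, which binds microtubules at the kinetochore, were each far more frequent in FL HSC and in CD11b+CD48+SK cells than in the WT-MPP. Spc24 was in 26 of 47 CD11b+CD48+SK cells, 31 of 56 FL HSC, 6 of 36 BM HSC and 0 of 41 WT-MPP, and Spc25 in 24, 22, 4 and 2. Nuf2 was in 11, 17, 0 and 0 cells and Ndc80 in 9, 21, 3 and 1. Spc24 (-1.10) and Ndc80 (-1.37) were lower in CD11b+CD48+SK cells than in FL HSC. All 4 were present together in 5 of 47 CD11b+CD48+SK cells (10.6%, 3.55 to 23.1%) and 17 of 56 FL HSC (30.4%, 18.8 to 44.1%), and in 0 of the adult cells. The 5 CD11b+CD48+SK cells all had the program, while 4 of the 17 FL HSC did not. The kinesin Cenpe was in 11 CD11b+CD48+SK cells, 3 WT-MPP, 1 BM HSC and 13 FL HSC, and Cenpf in 8, 2, 3 and 13.

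The spindle motors and microtubule-binding proteins were among the rarer members. Ckap2, which stabilises spindle microtubules, was the most frequent of them, in 19 CD11b+CD48+SK cells, 2 WT-MPP, 9 BM HSC and 21 FL HSC. Nusap1, which bundles microtubules near chromosomes, was in 10, 0, 1 and 16 cells. The other 6 (Kif11, Kif20b, Kif2c, Kif4, Tpx2 and Hmmr) were in between 4 and 8 CD11b+CD48+SK cells and between 8 and 15 FL HSC. Kif2c, a kinesin that takes microtubules apart, was the 1 member of this role lower than in FL HSC by more than 1 (-1.12). Differences of CD11b+CD48+SK cells from WT-MPP ran from 0.22 for Kif20b to 1.80 for Ckap2.

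Of the 6 genes of the central spindle and cytokinesis, 0 were higher by more than 1 in CD11b+CD48+SK cells than in the WT-MPP, and 0 than in BM HSC (19.01% and 13.4% of all genes), with median differences of 0.66 and 0.29. Kif23, a subunit of centralspindlin, was in 8 of 47 CD11b+CD48+SK cells (17%) and 11 of 41 WT-MPP (26.8%) and was the member furthest below WT-MPP, at -0.63. Its partner Racgap1 was in 11 CD11b+CD48+SK cells, 3 WT-MPP, 8 BM HSC and 18 FL HSC, and Ect2, the exchange factor they recruit, in 11, 2, 3 and 15. Kif20a, a kinesin of the midzone, was in 7, 6, 6 and 22 cells, and in the adult cells its median where detected was 2.71 TPM in WT-MPP and 3.34 in BM HSC, against 37.9 in CD11b+CD48+SK cells and 62.0 in FL HSC. Kif20a (-1.37) and Kif23 (-1.34) were lower in CD11b+CD48+SK cells than in FL HSC. Prc1, which crosslinks midzone microtubules, was in 8, 0, 3 and 16 cells, and anillin (Anln), a scaffold of the contractile ring, in 6, 0, 1 and 13.

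The 7 genes of chromosome condensation went both ways between CD11b+CD48+SK cells and the FL HSC. By more than 1, 1 was higher and 2 lower, where 4.02% and 20.9% of all genes were. The median difference was 0.07, against -0.32 over all genes. Smc4 (chr3:69004738-69034623, plus strand), a core ATPase of condensin, was the 1 member higher by more than 1 than in FL HSC, at 1.29, and at 1.90 among cells with 4000 to 5000 genes. It ran from 0.247 to 359 TPM in CD11b+CD48+SK cells with a median of 77.0, and from 0 to 323 TPM in FL HSC with a median of 30.04, so the ranges overlap. It was in 42 of 47 CD11b+CD48+SK cells (89.4%, 76.9 to 96.5%) and 40 of 56 FL HSC (71.4%, 57.8 to 82.7%), with 34 of the 39 CD11b+CD48+SK cells without the program among them. WT-MPP had Smc4 in 19 of 41 cells and BM HSC in 25 of 36.

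The other condensin ATPase, Smc2, was in 22 CD11b+CD48+SK cells and in 25 FL HSC (0.07), and topoisomerase II alpha (Top2a), which untangles sister DNA, in 20 and 20 (0.14). The proliferation antigen Mki67 was in 11 CD11b+CD48+SK cells and in 13 FL HSC (0.09), and was listed at 0 in every WT-MPP cell and BM HSC. In contrast, the condensin I subunits Ncaph (-1.39) and Ncapd2 (-1.15) were lower than in FL HSC, and Ncapg was at -0.51. All 5 condensin I subunits were present together in 5 of 47 CD11b+CD48+SK cells and 10 of 56 FL HSC, and in 0 of the adult cells.

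Within the cells that had the program, levels were described on the 38 members outside the late core, since the late core chose the cells. The 8 CD11b+CD48+SK cells were below the 14 FL HSC in 36 of these 38 members, by more than 1 in 24 and above by more than 1 in 0, with a median difference of -1.32. Over all 10856 genes the same cells gave a median of -0.20, with 6211 genes below 0. By more than 1, 2515 genes were lower and 1386 higher. The widest gaps were Cenpa (-4.48), Kif2c (-3.10), Ttk (-3.07), Prc1 (-2.87) and Aurkb (-2.63). Sgol1 (0.06) and Smc4 (0.41) were the 2 above 0, and Top2a (-0.03) and Mki67 (-0.26) were near it.

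Birc5 was present in all 8 and all 14 of these cells, between 167 and 1172 TPM with a median of 553 in CD11b+CD48+SK cells and between 353 and 1722 TPM with a median of 1050 in FL HSC. Cenpa ran from 0 to 1862 TPM with a median of 2.65 in the 8 CD11b+CD48+SK cells and from 30.7 to 1695 TPM with a median of 631 in the 14 FL HSC. The ranges of both genes overlap between the populations. The cells were not alike in the late core itself, where the medians were 8.5 and 11 genes, nor in S-phase genes, of which the CD11b+CD48+SK cells held a median of 25 of 28 and the FL HSC 21. Other markers also differed between them: erythroid markers summed to a median of 4984 TPM in the 14 FL HSC and 132 in the 8 CD11b+CD48+SK cells, myeloid markers to 1621 and 1462, and mast-cell markers to 0 and 240.4. The part of these in the gap was not tested.

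**Figure D5:**
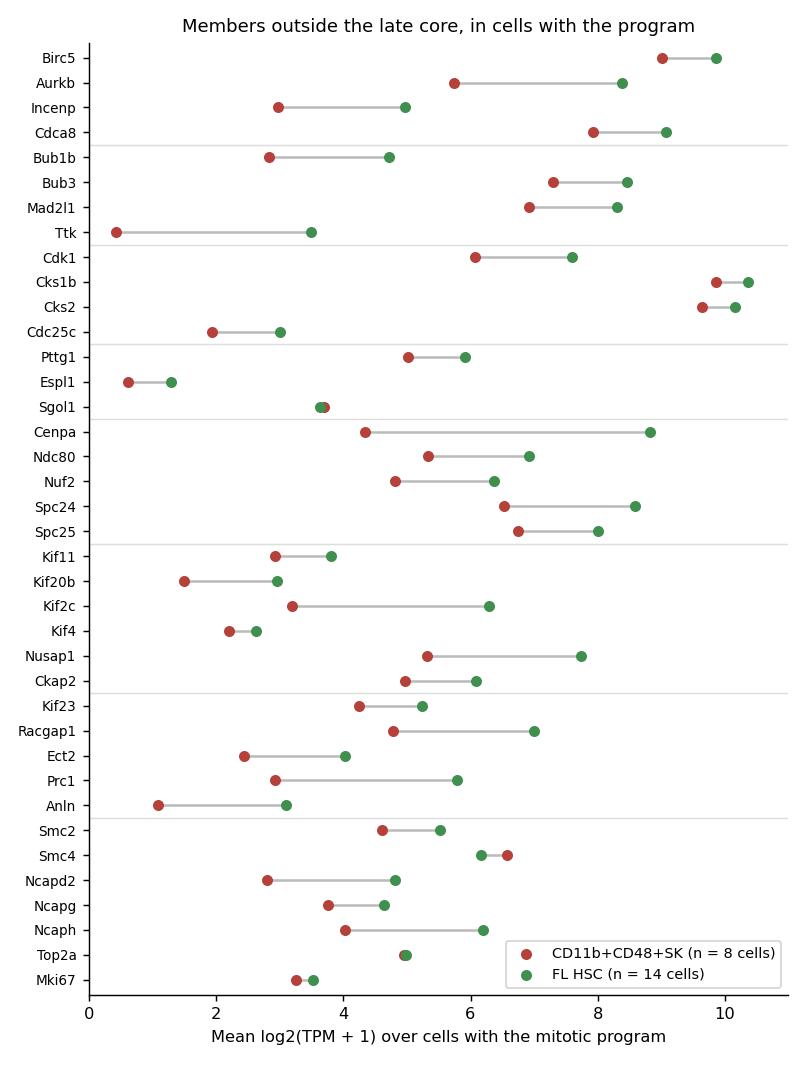
Mean log2(TPM+1) of the 38 members outside the late core (rows, grouped by role) over the cells with the mitotic program in CD11b+CD48+SK cells (red, 8 cells) and FL HSC (green, 14 cells), with a grey line joining the 2 means. The green point lies to the right in 36 rows, and Smc4 and Sgol1 are the exceptions. Over all 10856 genes, 6211 had the higher mean in these FL HSC.

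Outside the program the 2 populations were close in these 38 members. The median difference between the 39 CD11b+CD48+SK cells and the 42 FL HSC without it was 0.06, against -0.32 over all genes, with 1 member higher by more than 1 and 4 lower, where 4.55% and 22.6% of all genes were. Against the 40 WT-MPP without it, the same 39 cells were higher in 13 members and lower in 1 (16.8% and 5.57% of all genes), with a median of 0.48 against 0.16 over all genes. Against the 36 BM HSC they were higher in 6 and lower in 0 (11.7% and 12.8% of all genes), with a median of 0.32 against -0.04, so the share of members higher was near that of all genes.

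The S-phase genes showed how many cells were outside the program yet had replication transcripts. Of 28 such genes (among them the Mcm helicase subunits, Cdt1 and Rrm2), at least 14 were detected in 38 of 56 FL HSC (67.9%, 54 to 79.7%), 32 of 47 CD11b+CD48+SK cells (68.1%, 52.9 to 80.9%), 8 of 36 BM HSC (22.2%, 10.1 to 39.2%) and in 1 of 41 WT-MPP (2.44%). All 8 CD11b+CD48+SK cells with the mitotic program were among them, as were 13 of the 14 FL HSC. These shares were not read within a range of genes detected. The median of all genes detected was 3844 in WT-MPP, 4441.5 in BM HSC, 4514 in CD11b+CD48+SK cells and 5206.5 in FL HSC. The S-phase list had a median difference of 2.59 between CD11b+CD48+SK cells and the WT-MPP, against 0.21 over all genes. Of its 28 genes 26 were higher by more than 1, where 19.01% of all genes were. Between CD11b+CD48+SK cells and the FL HSC its median was -0.14, against -0.32 over all genes. There 0 were higher and 3 lower by more than 1 (4.02% and 20.9% of all genes). The late core, by comparison, had medians of 0.49 and -1.06.

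A further list of 55 mitosis genes that are no members was read beside them. Of its 54 genes that passed the filter, 19 were higher by more than 1 in CD11b+CD48+SK cells than in the WT-MPP and 0 lower (19.01% and 5.01% of all genes), and against FL HSC 0 were higher and 6 lower (4.02% and 20.9% of all genes), with medians of 0.76 and -0.51. The 14 core subunits and activators of the anaphase promoting complex, which resting cells also use, gave medians of 0.24 and -1.02, with 2 higher and 1 lower than in WT-MPP and 0 higher and 7 lower than in FL HSC, to be read against the same shares of all genes. Cohesin with its loaders and regulators gave medians of 0.33 and -0.08 over 10 genes. Among 11 genes for the factors that act on CHR and CCAAT promoters, Mybl2 was in 18 of 47 CD11b+CD48+SK cells, 14 of 56 FL HSC, 2 of 36 BM HSC and 1 of 41 WT-MPP, and Foxm1 in 4, 6, 1 and 1. Among 5 Cdk inhibitors, Cdkn1c was in 1 CD11b+CD48+SK cell, 15 WT-MPP, 21 BM HSC and 48 FL HSC, the last being the population with the largest share of cells with the program. Mybl2, Foxm1 and Cdkn1c were picked from these lists after their values were seen.

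The genes whose values over cells were most like the number of members detected were sought in both populations. Over the 47 CD11b+CD48+SK cells and 9057 genes that are no members, the highest Spearman's rho were those of the histone variant H2afz (0.80), Cenpw (0.79), Cenph (0.79), Rrm1 (0.78) and Cdca3 (0.78), followed by Asf1b, Tyms, Stmn1, Hmgn2 and Ppia. Over the 56 FL HSC and 9841 genes they were those of Cdca3 (0.80), Pbk (0.79), Neil3 (0.78), Cdc45 (0.77) and Cenpk (0.77), followed by 1190002F15Rik, Pkmyt1, Oip5, Kif22 and Ska1. These are descriptions over cells that share a population and differ in genes detected.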

How the data were processed

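Single cells were sorted into 4 populations, and their cDNA was amplified and sequenced, 1 library per cell. The deposited values are TPM, which the authors estimated with StringTie 1.3.4 after alignment with HISAT2 2.1.0. The submitters' processing notes also name SAMtools 0.1.19, bcl2fastq and the build mm10. The annotation, the strand setting and the rule by which genes were left out of the table are not given in the sources used here. TPM scales every cell to the same sum, so the depth per cell is unknown and a gene at 0 can be a failed capture. Of 181 columns, 180 matched a sample, and 1, named as a WT-MPP cell without a sample of its own, was not used. Authors' comparisons were not used.

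A gene was called detected at a TPM of 1 or more. Levels were averaged over cells as log2(TPM+1), and differences are on that scale, which understates changes of low genes. Genes were kept when detected in at least 10% of cells in 1 or more populations, 10856 of 14825. No animal is named, so p-values and errors between animals cannot be given. Shares carry exact Clopper-Pearson intervals (confidence 95%), and a count of 0 an upper limit of 3 cells. Doublets were not sought, since each library came from 1 sorted cell. Values were computed in Python 3.11.15 (numpy 2.4.6, pandas 2.3.3, scipy 1.17.1) and plots in matplotlib 3.10.9. The call of the program and the differences in mean level were tested on WT-MPP values into which known changes had been put. Gene positions are from GENCODE M21 (GRCm38) and promoters from RefSeq (GRCm38.p6).

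Members were named by role: in each role those found in the most and the fewest cells, those past a difference of 1 against FL HSC, Birc5, and the rest by their cells. The members, roles and lists were chosen with earlier results of these data known, so their directions are no independent evidence. Alternatives changed the pseudocount, the averaging, the gene filter, the scaling of cells, the detection limit, the cut for the program and the cells entering. 1 gene of the HSC marker list is not reported here.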

Additional observations from a re-analysis of the deposited data

How the results depend on the processing

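Of 106 alternative values, 70 kept their direction and size (shares within their main interval, which is wide, and counts and medians within 1.5 times), 34 moved and 2 changed sign. The share of CD11b+CD48+SK cells with the program depended on the cut: it was 27.7% at a lower cut of 4 late core genes, 10.6% at 8 genes and 10.6% at a TPM of 10, against 37.5%, 21.4% and 25% in FL HSC. WT-MPP reached 7.32% and BM HSC 5.56% at the lower cut, and WT-MPP 9.76% with any TPM above 0. The sign changes came with cells of 4000 to 5000 detected genes, where the median member difference was 0.17 between CD11b+CD48+SK cells and the FL HSC and -0.029 between WT-MPP and BM HSC (0.00 over all cells). That setting leaves fewer cells and 2 of the 14 FL HSC with the program. It also gave program shares of 0% in WT-MPP and 9.52% in FL HSC, 2 members higher and 3 lower in CD11b+CD48+SK cells than in FL HSC, 15 members higher with a median of 0.70 in FL HSC over WT-MPP, 13 with 0.49 over BM HSC, and 2 higher and 6 lower in WT-MPP than in BM HSC. Counting any TPM above 0 gave FL HSC a share of 44.6%. A pseudocount of 0.1 gave CD11b+CD48+SK cells a median of 1.43 over WT-MPP, 29 higher members and a median of 1.26 over BM HSC, and 26 lower than in FL HSC. It gave FL HSC medians of 2.66 and 2.14 over WT-MPP and BM HSC, and 2 members higher and 7 lower in WT-MPP than in BM HSC. A pseudocount of 10 gave CD11b+CD48+SK cells 9 higher members and a median of 0.38 over WT-MPP, 5 and 0.34 over BM HSC, and 0 higher, 4 lower and -0.46 against FL HSC. It gave FL HSC 21 and 0.82 over WT-MPP and 19 and 0.71 over BM HSC. The log2 of the mean TPM, which follows the highest cells, gave CD11b+CD48+SK cells 33 higher members and 1.68 over BM HSC, 0 higher and 26 lower against FL HSC, FL HSC a median of 2.66 over BM HSC, and 16 members higher and 11 lower in WT-MPP than in BM HSC. The cause of these moves was not tested. No paired analysis was possible because numbers on cells only name them and no test was made. The limits are 1 sample per population, an unknown depth, and low values: of member values at a TPM of 1 or more, 12.7% in FL HSC, 23.6% in CD11b+CD48+SK cells, 28.6% in BM HSC and 34.1% in WT-MPP were below 10.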
